A study of Mus musculus with 6 samples.

Results

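CC chemokines are small secreted proteins, named for adjacent cysteines near their start, that bind G protein-coupled receptors on leukocytes and draw those cells into tissue. In the liver they are known as products of Kupffer cells (the resident macrophages), endothelium, stellate cells, hepatocytes and arriving leukocytes, and different ligands call different cells according to the receptors these carry. The 8 genes described here are Ccl2, Ccl3, Ccl4, Ccl5, Ccl6, Ccl7, Ccl9 and Ccl24, and they were chosen by name, with every non-control probe of each gene. They had 9 probes, of 56605 non-control probes on the array that carry 37074 gene names. Ccl4 had 2 probes and the others 1 each.

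The study measured liver RNA of nude mice, which have no functional thymus and few mature T cells, on 6 single-colour Agilent arrays with 1 liver each. In the sEV group, 3 livers came from mice given small extracellular vesicles purified from SW620, a single human colorectal cancer cell line, through the tail vein (20 µg per injection, 10 injections over 21 days). In the control group, 3 livers came from mice given PBS, a saline buffer without vesicles, 10 times in the same period. There were 5 mice per group, and the arrayed sEV mice were picked at random. No vesicles of other cells were among the groups analysed here, so that the comparison is of tumour cell vesicles with buffer.

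Between 49.9% and 54.7% of non-control spots per array were well above background, and no array was saturated at any of them. Values are log2 of the processed signal relative to the array's 75th percentile, so that 0 is a spot at that percentile and 1 unit is a doubling. Signals of different probes cannot be ranked against each other. Of the hepatocyte markers on the list used, 10 of 10 were tested, 3 rose and 7 did not pass. The share called was 30%, beside 16.9% of all genes. Tat, Cps1 and Hnf4a rose by log2 fold changes of 1.20 ± 0.12, 0.85 ± 0.09 and 0.54 ± 0.10 (SE). Alb did not pass the test (log2 fold change 0.15 ± 0.15 SE, limma adjusted p = 0.512). Slide row 1 held all control arrays and sEV 1, and slide row 2 held sEV 2 and sEV 3. Row and group are therefore partly confounded, and the comparison with row as a block rests on 1 sEV array.

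The probes are what the array sees of these genes, and for chemokines, which arose by repeated gene duplication, the letters decide whether 1 gene can be told from the next. The first 30 bases of the 60-base probes of the members that most results turn on are printed first.
Ccl5: tctcagctgctccgaggctctgcacagcaa
Ccl6: aatgtgtctggttctgatacaagcttaagc
Ccl9: caactaggatgaaataaattctgccttagc
Ccl2: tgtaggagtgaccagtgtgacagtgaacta
In the array design's mm9 coordinates these probes lie at chr11:83339296-83339355 (Ccl5), chr11:83401997-83402056 (Ccl6) and chr11:83388223-83388282 (Ccl9), all on the minus strand, and at chr11:81850650-81850709 (Ccl2), on the plus strand. The design names a transcript for each and does not say whether a probe is in coding sequence or UTR. Among 394 pairs of CC ligand probes from different genes, the longest run of shared letters was 13 bases, in Ccl8 and Ccl12, and the next was 10.

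Ccl5 rose in sEV livers, and it was the single gene among the 8 that passed the test. Ccl5 encodes the ligand also called RANTES, which binds Ccr1 and Ccr3, among other receptors, and is made by activated T cells, NK cells and macrophages. Its normalized log2 signal was 1.21, 1.34 and 0.91 in sEV livers 1 to 3, against 0.29, 0.56 and 0.25 in control livers. The groups did not overlap. Mean signals were 1.15 ± 0.22 in sEV livers and 0.37 ± 0.17 in control livers (SD, n = 3 each), a log2 fold change of 0.79 ± 0.15 (SE), or 1.73-fold, with a 95% interval of 0.44 to 1.14 (limma adjusted p = 0.0198). In whole liver, more or fewer cells of a type and more or less RNA per cell cannot be told apart, for any gene. The slide row block gave a log2 fold change of 0.84 with an adjusted p of 0.107. The adjusted p was 0.0530 without sEV 2, 0.0666 without control 1 and 0.0613 without control 3, at log2 fold changes of 0.69, 0.75 and 0.73.

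Ccl5 was thus 1 call among 6 members tested, or 1 of 8 on the array. Of all 19447 genes tested, 16.9% passed in either direction, 8.96% as higher and 7.99% as lower, and 33.6% had an unadjusted p under 0.05. The members' share of 1 in 6 is near the background, so that the 8 genes as a group were not set apart by the count. The median log2 fold change of the 6 tested members was 0.05, against 0.03 over all genes tested. Among genes that passed, 52.9% were higher, a share that was 41.2% with scaling to the array median, and Ccl5 passed under both scalings.

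**Figure D1:**
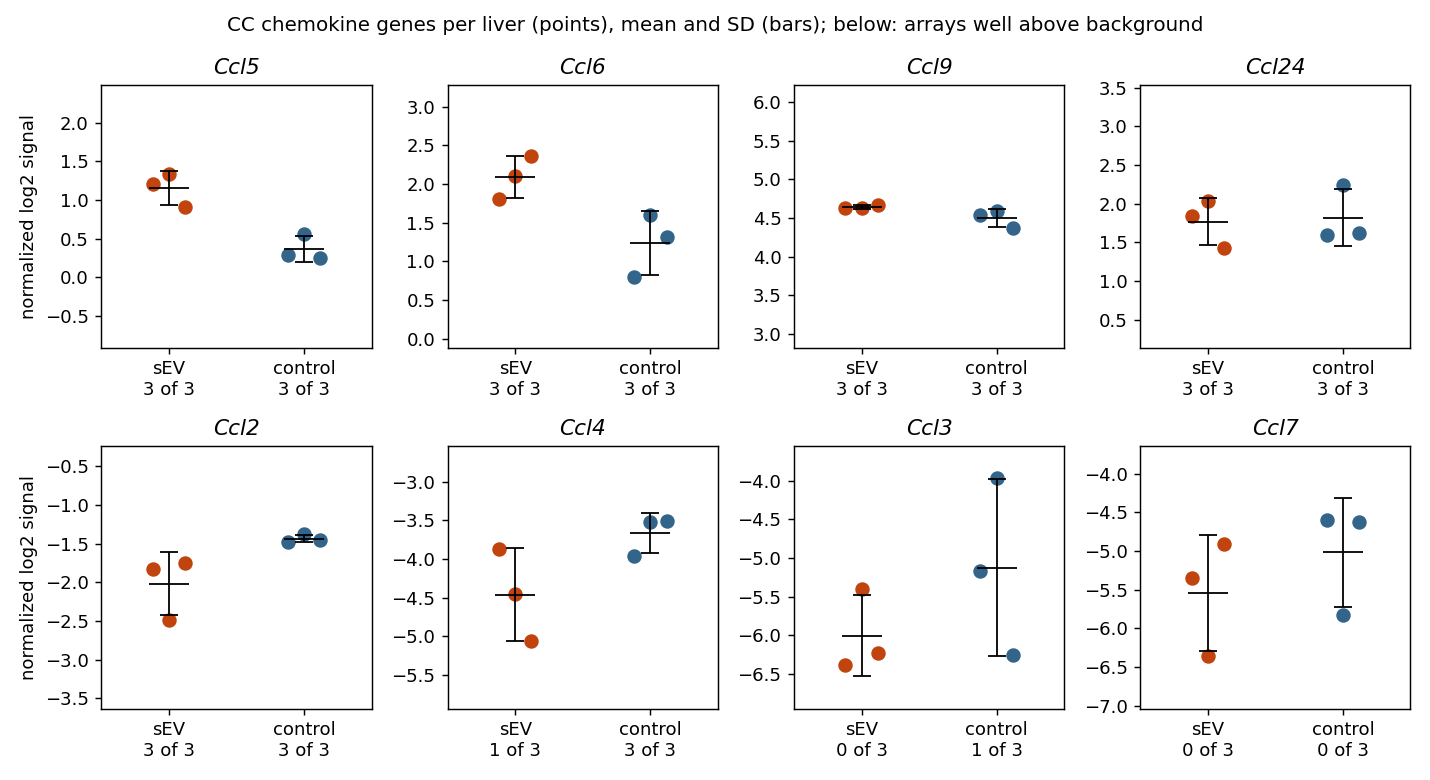
Normalized log2 signal of the 8 CC chemokine genes in each liver (points), with mean and SD (n = 3 per group), sEV left of control; each panel spans the same log2 range, and the counts below give arrays well above background. Ccl5 and Ccl6 lie higher in all 3 sEV livers than in any control liver, Ccl2 lies lower, and Ccl3 and Ccl7 are mostly at background.

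Ccl6 and Ccl9 are rodent chemokines of macrophages and other myeloid cells, and both act through Ccr1. Ccl6 signal was 1.81, 2.11 and 2.36 in sEV livers, against 0.79, 1.60 and 1.32 in control livers. Every sEV liver was above every control liver, and control 1 was the lowest of all. The log2 fold change was 0.85 ± 0.24 (SE), or 1.81-fold, with a 95% interval of 0.29 to 1.42, and it missed the threshold (limma adjusted p = 0.0552). It passed under 5 of 18 alternatives, among them normexp background correction (0.79, adjusted p = 0.0256) and the filter that keeps probes well above background on all 6 arrays (0.85, adjusted p = 0.0410). The SD of Ccl6 was 0.27 in sEV livers and 0.41 in control livers, and under the slide row block its log2 fold change was 0.57 (limma adjusted p = 0.354).

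Ccl9 signal was 4.63, 4.63 and 4.68 in sEV livers, against 4.54, 4.60 and 4.37 in control livers. The groups were narrowly apart, with an SD of 0.03 in sEV and 0.12 in control livers. The log2 fold change was 0.14 ± 0.09 (SE), with a 95% interval of -0.07 to 0.36 and a limma adjusted p of 0.314. That interval overlaps the Ccl6 interval of 0.29 to 1.42, while its upper bound lies below the Ccl5 interval of 0.44 to 1.14. Of the 6 tested members, the groups of 4 (Ccl2, Ccl5, Ccl6 and Ccl9) did not overlap, where 40.7% of all genes tested did not.

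Ccl24, the eotaxin that recruits eosinophils through Ccr3 and a product of alternatively activated macrophages, had signals of 1.84, 2.03 and 1.43 in sEV livers, against 1.59, 2.24 and 1.62 in control livers. The groups were interleaved. Its log2 fold change was -0.05 ± 0.23 (SE), with a 95% interval of -0.60 to 0.50 (limma adjusted p = 0.892). The interval spans values in both directions, so that a modest change was not detectable. Ccr3, its receptor, likewise did not pass, at -0.15 ± 0.17 (adjusted p = 0.563).

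Ccl2, the main ligand of Ccr2 and the signal by which inflamed tissue draws monocytes out of the marrow, was on the low side in sEV livers. Its signal was -1.82, -2.49 and -1.75 in sEV livers, against -1.47, -1.38 and -1.45 in control livers. Each sEV liver lay below each control liver, with the controls tightly together and sEV 2 apart from the other sEV livers. The log2 fold change was -0.59 ± 0.20 (SE), with a 95% interval of -1.07 to -0.10, and it did not pass (limma adjusted p = 0.0955). Over the 18 alternatives it ran between -0.72 and -0.33 and passed under none of them (lowest adjusted p 0.0670); with slide row as a block it was -0.39. Ccl7, a further Ccr2 ligand, was well above background on none of the 6 arrays, with measured signals of -5.35, -6.37 and -4.91 in sEV livers, against -4.59, -5.83 and -4.63 in control livers. No fold change is given for Ccl7, which both groups hold at background.

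Ccl3 and Ccl4 encode macrophage inflammatory proteins that attract monocytes and lymphocytes, and Ccl3 binds Ccr1. The array was dim for both. Ccl3 was well above background on control 2 alone, with signals of -6.39, -5.40 and -6.22 in sEV livers, against -5.16, -3.96 and -6.25 in control livers, and it was not tested. The brighter Ccl4 probe was well above background on 1 of 3 sEV arrays and 3 of 3 control arrays. Its signal was -3.86, -4.46 and -5.06 in sEV livers, against -3.96, -3.52 and -3.51 in control livers, so that sEV 1 lay among the controls and the others below them. The log2 fold change was -0.80 ± 0.31 (SE; limma adjusted p = 0.124), and it was -0.08 under normexp and -0.20 with slide row as a block. Without sEV 1 the fitted value passed (-1.10, adjusted p = 0.0396), but neither sEV array left was well above background, so that no call is drawn from it.

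The probes of Ccl4 show how little independent weight its second reading has, since they start 14 bases apart and share 46 bases. Their first 30 bases are printed with the shared letters of these windows in capitals.
Ccl4, brighter probe: TATTATTTATGTTTTAgttataggacgcgt
Ccl4, dimmer probe: gggagtattattttTATTATTTATGTTTTA
The dimmer Ccl4 probe gave -4.58, -5.65 and -4.73 in sEV livers, against -4.98, -4.22 and -4.18 in control livers, and was well above background on 0 of 3 sEV arrays and 1 of 3 control arrays. It placed sEV 1 and sEV 3 among the controls and sEV 2 below them, unlike the brighter probe.

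The ratio of 2 probes within an array does not depend on how arrays are scaled, so the members well above background on all 6 arrays (Ccl2, Ccl5, Ccl6, Ccl9 and Ccl24) were also set against each other. In 7 of 10 pairs the within-array difference did not overlap between the groups, a count that is not a result about the members, since 4 of these 5 genes did not overlap singly, as 40.7% of all genes did not. The log2 difference of Ccl5 minus Ccl9 averaged -3.49 ± 0.25 in sEV livers and -4.13 ± 0.11 in control livers (SD, n = 3 each), an excess of 0.64 for Ccl5. For Ccl6 minus Ccl24 the excess was 0.91, and for Ccl2 minus Ccl5 it was -1.37. For Ccl5 minus Ccl6 it was -0.07, and the groups overlapped. The exact permutation test, two-sided, gave p = 0.1 for each of the 7 pairs (adjusted p = 0.143 over 10 pairs), which is the smallest that 3 against 3 can give.

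The mouse genome places most of these ligands in a pair of neighbouring clusters on chromosome 11, in the order Ccl2, Ccl7, Ccl11, Ccl12, Ccl8, Ccl1 and then Ccl5, Ccl9, Ccl6, Ccl3, Ccl4. Of the genes tested there, Ccl8, Ccl1, Ccl5, Ccl9 and Ccl6, which follow each other in that order, had fitted log2 fold changes of 1.55 (against controls at background), 0.21, 0.79, 0.14 and 0.85. The outermost genes, Ccl2 and Ccl4, had -0.59 and -0.80. Of these 7 genes, Ccl8 and Ccl5 passed the test, where 16.9% of all genes passed. Ccl8 entered the test through its sEV arrays alone, so that its call adds nothing to this count.

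**Figure D2:**
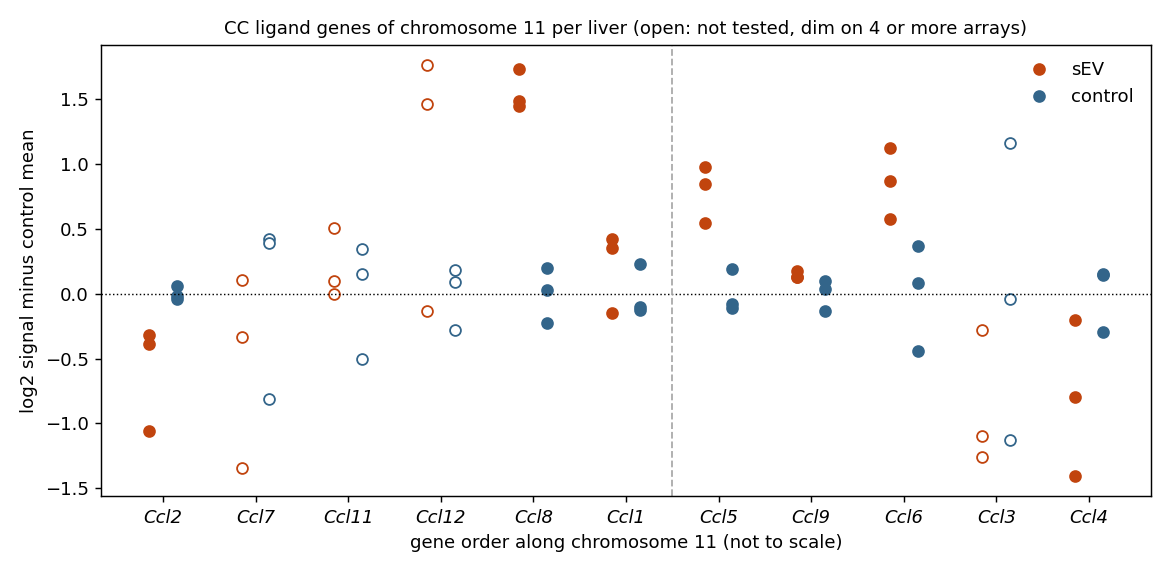
Log2 signal minus the control mean for each CC ligand gene of chromosome 11 in each liver, in gene order (spacing not to scale; the dashed line parts the clusters), sEV left of control. Open points belong to genes that were not tested because too few arrays were well above background. Ccl8, Ccl5, Ccl6 and, narrowly, Ccl9 have every sEV liver above every control liver, and of these Ccl6 and Ccl9 did not pass the test.

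Promoter letters were at hand for 3 of the 8 genes, all in the second cluster: Ccl6, Ccl9 and Ccl3. The 250 bases before each start are shown for these neighbours. Ccl6 and Ccl9 did not pass the test and Ccl3 was not tested, so that no difference between them is established. Sequences are from RefSeq (GRCm38.p6, minus strand), and capitals mark matches, on either strand, to TATAAA, to the ETS core GGAAGTG, to the AP-1 site TGANTCA or to the NF-kappaB consensus.
Ccl6, chr11:83593088-83593337: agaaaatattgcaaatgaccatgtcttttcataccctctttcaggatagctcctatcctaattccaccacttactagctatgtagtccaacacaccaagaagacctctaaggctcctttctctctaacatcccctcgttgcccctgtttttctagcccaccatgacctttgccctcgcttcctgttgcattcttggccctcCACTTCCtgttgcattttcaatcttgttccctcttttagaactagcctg
Ccl9, chr11:83578637-83578886: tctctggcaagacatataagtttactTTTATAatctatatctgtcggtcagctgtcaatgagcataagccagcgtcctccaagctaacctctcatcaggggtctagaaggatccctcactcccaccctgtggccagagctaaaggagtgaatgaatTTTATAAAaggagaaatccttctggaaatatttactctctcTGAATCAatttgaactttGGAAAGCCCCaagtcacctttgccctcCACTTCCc
Ccl3, chr11:83649379-83649628: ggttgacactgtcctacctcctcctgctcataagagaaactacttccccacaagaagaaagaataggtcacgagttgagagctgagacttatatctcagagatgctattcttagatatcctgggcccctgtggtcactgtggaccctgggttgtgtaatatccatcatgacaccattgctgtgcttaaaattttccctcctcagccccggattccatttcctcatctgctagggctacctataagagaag
The Ccl6 window held 1 ETS core. The Ccl9 window held 1 ETS core, 1 AP-1 site, 1 NF-kappaB consensus and 3 matches to TATAAA, of which a pair overlap on opposite strands. The Ccl3 window held none of these, nor the C/EBP letters TTGCNNAA, which none of the windows held. Of 32851 promoter windows of the same length, 12.4% held TATAAA, 8.55% the ETS core, 6.75% the AP-1 site, 9.56% the C/EBP letters and 3.9% the NF-kappaB consensus. A match is a description of letters, not a bound site.

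Of the other CC ligands, 13 were on the array, 7 were tested, 1 rose and 6 did not pass. The share called was 14.3%, near the 16.9% of all genes tested. Ccl8, a ligand of Ccr8 in the mouse that macrophages make, was the one that rose. Its signal was -2.95, -3.23 and -3.19 in sEV livers, against -4.64, -4.47 and -4.90 in control livers. It was well above background on all 3 sEV arrays and on no control array, so on this scale its change is a bound: at least 2.65-fold higher against the floor of the dimmest probes well above background on each control array (limma adjusted p = 0.00243). Under normexp, which sets dim signals on another scale, the fitted log2 fold change was 0.55, so that the bound holds for the processed signal alone. A gene that passes the filter through its sEV arrays alone had to differ, so that its call adds nothing to a count.

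Ccl8 shares its 13-base run with the probe of Ccl12, its neighbour and a Ccr2 ligand, and the windows that hold it are printed with the shared run in capitals.
Ccl8: ttctgcagCCTTGAACCTTCAcacctgagt
Ccl12: tCCTTGAACCTTCAtgtctaggctgagagt
Ccl12 was well above background on 2 of 3 sEV arrays and on no control array, which left it out of the test. Its signal was -4.19, -5.78 and -3.88 in sEV livers, against -5.92, -5.56 and -5.46 in control livers, so that sEV 2, which was above every control for Ccl8, lay among the controls for Ccl12.

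Among the ligands that did not pass, Ccl17, made by dendritic cells, had 1.23 ± 0.73 (SE), with controls between -5.85 and -3.18. Ccl19 and Ccl21a, which guide cells that carry Ccr7, had 0.34 ± 0.19 and -0.36 ± 0.38, and Ccl21a has near-identical copies that its probe may also read. Ccl25, the ligand of Ccr9, had 0.29 ± 0.11, and its next brightest probe 0.34 ± 0.10 (limma adjusted p = 0.146 and 0.0693, both over all probes). Ccl1 had 0.21 ± 0.18 and Ccl27a -0.16 ± 0.22. None of Ccl11, Ccl20, Ccl22, Ccl26 and Ccl28 was well above background on an array.

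**Figure D3:**
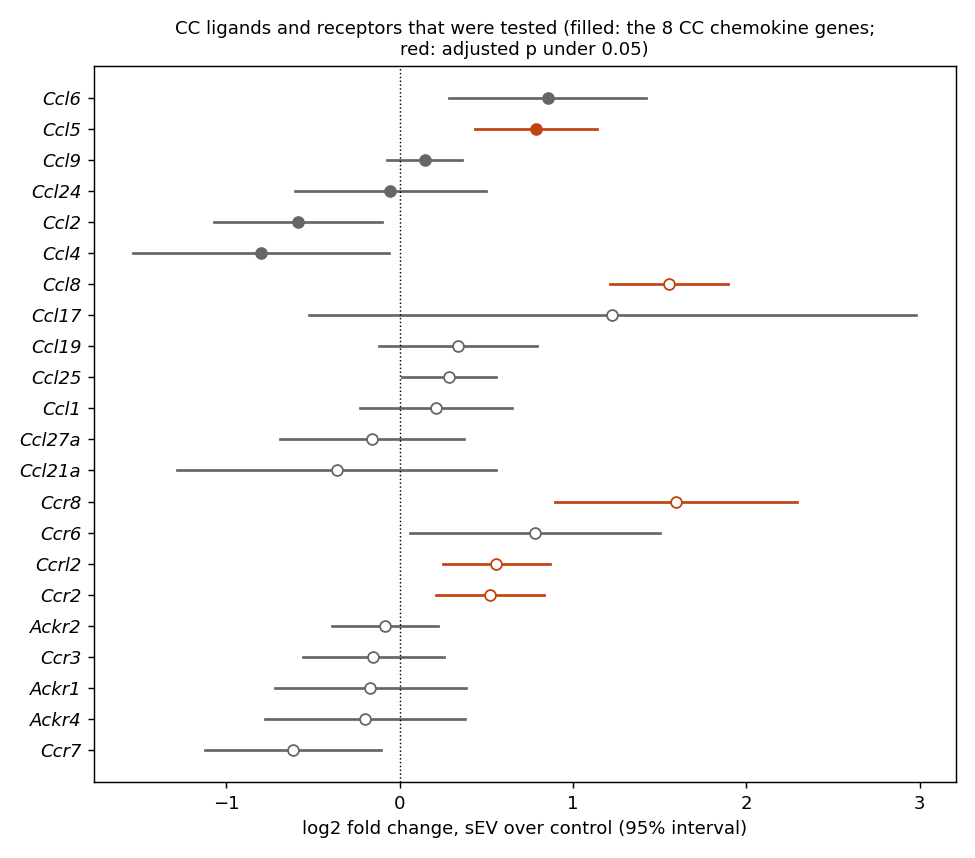
Log2 fold change of sEV over control livers with its 95% interval (limma, n = 3 per group) for the CC ligands and receptors described here that were tested; filled points are genes among the 8, and red marks an adjusted p under 0.05. Ccl5, Ccl8, Ccr8, Ccrl2 and Ccr2 pass, all as higher in sEV livers.

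Some genes on the receptor list were higher in sEV livers, and of these only Ccr2 is a receptor of members (Ccl2 and Ccl7). Of the 9 CC and atypical CC receptors reported here that were tested, 3 rose, 0 fell and 6 did not pass, beside the 8.96% of all genes that passed as higher. Those that rose were Ccr8, Ccrl2 and Ccr2, and Ccr8, whose sEV arrays alone were enough for the filter, adds nothing to the count. The count was 1 under scaling to the array median and 0 under the slide row block. It was 0 without control 1, and 1 without sEV 3, without control 2 or without control 3.

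Ccr2, the receptor of Ccl2, Ccl7 and Ccl12 on inflammatory monocytes, had -3.28, -2.84 and -2.91 in sEV livers, against -3.51, -3.57 and -3.52 in control livers. The receptor was thus higher while its ligand Ccl2 was on the low side. Its log2 fold change was 0.52 ± 0.13 (SE; limma adjusted p = 0.0418), 0.25 under the slide row block (adjusted p = 0.256), and its call ended under 11 of 18 alternatives. Each array but sEV 1 ended that call when left out.

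Ccr8, the receptor of Ccl1 and, in the mouse, Ccl8, had -3.64, -3.36 and -2.57 in sEV livers, against -5.02, -4.84 and -4.49 in control livers. Only control 3 among the controls was well above background. With 2 of 3 controls at background, the fitted log2 fold change of 1.60 ± 0.29 (SE; limma adjusted p = 0.0189) is no exact size, and it was 1.15 under the slide row block (adjusted p = 0.145) and 0.63 under normexp. Without control 1 the adjusted p was 0.0657, and without control 2 it was 0.0630. Ccrl2, an atypical receptor that presents chemerin to other cells, rose by 0.56 ± 0.13 (adjusted p = 0.0339), a call that ended under 9 of 18 alternatives, median scaling among them.

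The remaining receptors did not pass. Ccr6, the receptor of Ccl20, had 0.78 ± 0.30 (SE; limma adjusted p = 0.125), and Ccr7 had -0.61 ± 0.21 (adjusted p = 0.0970). The scavenging receptors, which bind chemokines without a G protein signal, were near 0: Ackr1 at -0.17 ± 0.23, Ackr2 at -0.08 ± 0.13 and Ackr4 at -0.20 ± 0.24. Ccr1, the receptor shared by Ccl3, Ccl5, Ccl6 and Ccl9, was well above background on no array, and neither were Ccr1l1, Ccr4, Ccr9 and Ccr10.

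Of 27 genes that induce CC chemokine genes or regulate their transcription, 22 were tested, 7 rose, 1 fell and 14 did not pass. The list's median log2 fold change was 0.37, against 0.03 over all genes tested. Cebpb, a transcription factor of the acute phase, rose by 0.69 ± 0.10 (SE), and Irf1, an interferon-induced factor, by 0.86 ± 0.13. Stat6, which carries interleukin 4 and 13 signals, rose by 0.48 ± 0.08, while the AP-1 subunit gene Jun had -0.55 ± 0.10 (limma adjusted p = 0.0206) and fell. The cytokine genes Il6, Ifng, Il4 and Csf2 were dim, with no array well above background. Of 16 genes that signal downstream of chemokine receptors, 3 rose and 13 did not pass, a share of 18.8% beside 16.9% of all genes. Adrbk1, a kinase that desensitizes receptors, rose by 0.52 ± 0.09, and Dock2 and Vav1, leukocyte activators of Rac, by 0.49 ± 0.12 and 0.52 ± 0.13. Of both lists, 11 of 38 genes were called, and 3 with slide row as a block, where calls over all genes numbered 3296 of 19447 and 722 of 19444.

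The 3 genes whose centred profile over the 6 arrays was closest to that of Ccl5, of 13527 genes compared, were Fpr2, Lgals3 and Fcgr1. Fpr2 encodes a formyl peptide receptor of phagocytes, Lgals3 galectin-3 and Fcgr1 the high-affinity IgG receptor. Their root mean square differences from Ccl5 were 0.0572, 0.0842 and 0.0864 log2 units, with log2 fold changes of 0.76, 0.66 and 0.67. With 6 arrays in 2 groups, the likeness includes the group difference itself.

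Some markers of cells that make or follow these chemokines moved as well, and their part in the results above was not tested. All marker counts below stand beside 8.96% of all genes that passed as higher and 7.99% as lower, 16.9% in all. The dendritic cell list (22.2% called) and the short eosinophil and basophil list (25%) were near that share. The 13 markers of Kupffer cells included 6 that rose and 7 that did not pass, and their summed signal, relative to the 75th percentile, was 125.0 to 142 in sEV livers and 87.9 to 119 in control livers. C1qc and C1qa, complement subunit genes, rose by 0.76 ± 0.13 and 0.74 ± 0.13 (SE), and Vsig4, a complement receptor gene, by 0.59 ± 0.11. C1qb rose by 0.72 ± 0.14. Of 12 monocyte and recruited macrophage markers tested, 4 rose, 3 fell and 5 did not pass, with sums of 119 to 131 in sEV livers and 114 to 126 in control livers. Cx3cr1 fell by 2.17 ± 0.17 and Ly6c2 by 0.56 ± 0.08, while Ms4a7 rose by 1.27 ± 0.16 and Cd14 by 1.93 ± 0.30. Chil3 and F13a1 rose as well, by 2.51 ± 0.43 and 1.39 ± 0.31, and Itgam fell by 0.79 ± 0.17. These markers moved in both directions, so that the direction of the receptor Ccr2 tells nothing about them. The Ccr2 call itself ended under 11 of 18 alternatives.

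Of 9 T and NK cell markers tested, 2 rose, 1 fell and 6 did not pass, and 8 of 9 values were positive (median 0.39). Their sum was 15.6 to 16.5 in sEV livers and 17.2 to 21.3 in control livers, most of it the signal of the Cd4 probe, the one marker with a negative value. The NK cell genes Nkg7 and Ncr1 rose by 1.29 ± 0.21 and 0.65 ± 0.14 (SE), and Cd4 fell by 0.48 ± 0.13. Cd3g, Klrb1c and Eomes were at background throughout. Of 14 neutrophil and granulocyte precursor markers tested, 6 rose and 8 did not pass (sums of 154 to 162 in sEV livers and 105 to 128 in control livers). Most of each control sum was the signal of the Csf3r probe. Its log2 signal was 3.40 in sEV 2, against 6.29 in sEV 1 and 6.08 in sEV 3. Those that rose were led by the granule genes of precursors Ctsg at 2.09 ± 0.25, Elane at 1.32 ± 0.17, Mpo at 2.02 ± 0.40 and Ngp at 1.82 ± 0.42. S100a9 and S100a8 also rose, by 1.11 ± 0.28 and 1.18 ± 0.30. The 8 that did not pass included the granule gene Prtn3 at 1.63 ± 0.44 (limma adjusted p = 0.0513). Ltf was at 1.19 ± 0.37, Camp at 1.16 ± 0.41 and Mmp8 at 1.01 ± 0.31. Lower values were those of Cxcr2 at 0.84 ± 0.49, Retnlg at 0.57 ± 0.49, Ly6g at -0.07 ± 0.16 and Csf3r at -0.89 ± 0.74. Of the eosinophil and basophil markers, which bear on Ccl24, 4 were tested and 1 rose, the basophil protease gene Prss34 at 1.29 ± 0.21, while the eosinophil granule genes Prg2 and Epx, the receptor gene Il5ra and the mast cell and basophil genes Cpa3 and Ms4a2 were at background throughout. The sum of this list was 0.299 to 0.773 in sEV livers and 0.200 to 0.277 in control livers. Of 9 dendritic cell markers tested, Cd74 and H2-Ab1 rose by 1.39 ± 0.17 and 1.29 ± 0.17 and 7 did not pass. Those 7 ran from -0.11 ± 0.13 (Itgae) to 1.30 ± 0.48 (Cd209a), with Zbtb46 at 0.15 ± 0.16 and Clec9a at 0.10 ± 0.12. The list's sums were 79.3 to 126 in sEV livers and 82.4 to 93.4 in control livers. Most of each sum was the signal of the Siglech probe (0.02 ± 0.22). Among other markers, 3 of 10 for hepatocytes rose, 3 of 8 for stellate cells and 5 of 9 for erythroid cells fell, and 0 of 8 for endothelium passed.

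**Figure D4:**
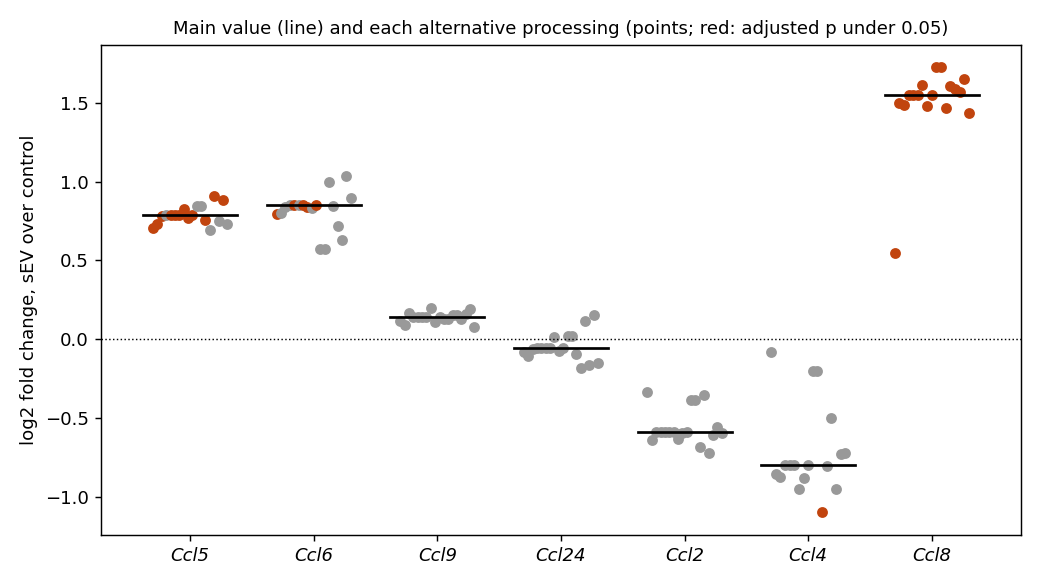
Log2 fold change of sEV over control livers for the tested members and Ccl8 as reported (line) and under each alternative processing or left-out array (points; red marks an adjusted p under 0.05). Ccl5 and Ccl6 stay above 0 and Ccl2 and Ccl4 below 0 throughout, and Ccl24 crosses 0; the Ccl8 points are fitted values against controls at background, lowest under normexp (0.55).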

How the data were processed

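Each liver had 1 deposited scanner file, made with Agilent Feature Extraction (version 10.7.1.1 in the submitters' processing notes). Its processed signal is an intensity that, per the file headers, was spatially detrended within the array, with surrogates for low values. The authors' deposited value table holds log2 values with equal quantiles in every column, and how it was made is not stated in the labels. Control and outlier spots (91 to 171 per array) were left out, log2 signals were taken relative to the array's 75th percentile, and spots of 1 probe were averaged. The filter kept a probe that was well above background on 3 or more of the 6 arrays, and the brightest probe stood for its gene name (19447 genes). The test was limma 3.58.1 (R 4.3.3; lmFit and eBayes without covariates), with Benjamini-Hochberg adjusted p-values over all genes, called under 0.05. A fit over 28766 probes, of which 14% passed, called Ccl5 alone among the member probes. Errors after log2 fold changes are SE. The procedure was tested on simulated data. The members, lists and tests were chosen with earlier results of these data known. Named genes are the members, the CC ligands and receptors measured (1 receptor is not reported here, and the receptor counts leave it out), and up to 4 genes of each other list that passed, by moderated t. All arrays shared 1 slide and scan. Same-numbered livers deviated together with correlations of 0.018, 0.156 and 0.021, so the numbers do not pair them. The number of arrays limits precision. The limma p-values weigh each group difference against the spread between these livers within groups, moderated over all genes. Plots were made with matplotlib 3.10.9 (Python 3.11.15).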

Additional observations from a re-analysis of the deposited data

How the results depend on the processing

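Of 388 combinations of a named gene and 1 of 18 alternatives, 333 kept direction and side of the threshold, 31 lost a call, 8 gained one and 16 reversed, and the cause was not tested unless fewer arrays or more genes were used by construction. Members called, by gene and by probe (1 each), were 2 under normexp, the filter on all 6 arrays, eBayes with trend and robust, and array weights, and 0 with no filter, with slide row as a block and within slide row 1. Leaving out 1 array gave 0 to 2 genes and 0 to 1 probes. Receptors called (3) were 1 under median scaling, 0 with no filter, 0 with the row block, 0 within row 1, and 0 to 3 with 1 array left out. Other ligands called (1) were 0 under the filter on all 6 arrays. Inducers and signalling genes called (11) were 0 with no filter, 3 with the row block, 2 within row 1 and 3 to 9 with 1 array left out. All genes called (3296) were 791 with no filter, 722 with the row block, 607 within row 1 and 1318 to 2823 with 1 array left out.

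With the replicate number as a block, 2 member genes, 2 member probes, 1 receptor and 2157 of all genes were called. The numbers did not pair the livers.

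Reversed log2 fold changes belonged to genes that missed the threshold. Ackr2 was 0.13 with the mean of probes and 0.026 with array weights, and Ackr4 was 0.063 under normexp. With the row block and within row 1, Ccl21a was 0.12, Ccl24 0.023 and Ccl27a 0.31, and Ccl24 was 0.011 with array weights. With 1 array left out, Ackr1 ran between -0.34 and 0.054, Ccl21a between -0.60 and 0.020, Ccl24 between -0.18 and 0.16, Ccl27a between -0.40 and 0.017, and Ccr3 between -0.26 and 0.0083. Dim probes limit Ccl3, Ccl4 and Ccl7, whose signals lay near background.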
